A study of Homo sapiens with 3 samples.

Results

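The 31 genes described here encode the chaperones, folding enzymes and degradation factors of the endoplasmic reticulum (ER) and the sensors of the unfolded protein response that control many of them. They were taken by symbol, for their role in this pathway, from a table of 55773 gene symbols, and all 31 were found in it. RNA sequencing gave their transcript levels in HaCaT cells, human keratinocytes that became immortal spontaneously in culture. According to the labels, all cells first received the oncogenic HRasG12V, so that the controls carry it too, and were grown in DMEM with fetal bovine serum. One line then received THG-1 (S264A), in which a serine of the protein is replaced by alanine, another received wild-type THG-1, and the control line received the empty vector. THG-1 is the product of TSC22D4, a leucine zipper protein of the TSC22 family. Each line was represented by 1 library. The promoter of the vector, and whether a line is a clone or a pool, are not stated in the labels used here.

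Proteins that enter the secretory pathway fold in the ER with the help of Hsp70 and Hsp90 chaperones, lectin chaperones that bind N-glycans, and disulphide isomerases. When unfolded proteins accumulate, the sensors IRE1 (encoded by ERN1), PERK (EIF2AK3) and ATF6 are activated. IRE1 splices the XBP1 messenger, PERK limits translation and favours ATF4, and ATF6 is cut in the Golgi, and the resulting transcription factors raise chaperone and degradation genes. In keratinocytes this pathway is known to be active during differentiation, when secretory and lipid traffic increase. Splicing of XBP1, cleavage of ATF6 and phosphorylation of PERK cannot be seen in gene-level values.

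Many of these genes are known targets of ATF6 and XBP1 through an ER stress response element. Promoters of 300 bases (250 before to 50 after the start) were taken from RefSeq, build GRCh38.p14, for 27 of the 31 genes, and ERO1L was matched under its current symbol ERO1A. PDIA3, DERL1, DERL3 and SEC24D had no entry. Of the 27, 7 held the element ERSE, which is CCAAT followed after 9 bases of any kind by CCACG, on either strand (XBP1, HSPA5, HSP90B1, CALR, CANX, PDIA6 and CRELD2). The compact form ERSE-II, which is ATTGG and CCACG with a single free base between them, was found in 3 (HYOU1, SDF2L1 and HERPUD1). The 10 with either form were 37.0% of the 27, against 0.161% of the 27305 gene symbols with a promoter in the table. Since the genes were taken for their role in this pathway, a higher share can follow from that choice alone. The windows below are those with an element among the genes whose values are given in full. Each is written on the strand of its gene with the element in capitals, and an element in reverse orientation reads CGTGG first.
XBP1, chr22:28800583-28800641, minus strand: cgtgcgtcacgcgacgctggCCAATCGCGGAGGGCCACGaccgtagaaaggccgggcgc
HSPA5, chr9:125241371-125241429, minus strand: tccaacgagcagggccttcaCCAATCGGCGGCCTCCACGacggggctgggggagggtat
HSP90B1, chr12:103930196-103930254, plus strand: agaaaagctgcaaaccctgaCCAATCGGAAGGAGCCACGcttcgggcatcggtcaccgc
HSP90B1, chr12:103930301-103930359, plus strand, reverse element: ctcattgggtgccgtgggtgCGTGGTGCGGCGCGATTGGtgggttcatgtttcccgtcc
HYOU1, chr11:119057360-119057410, minus strand, reverse element: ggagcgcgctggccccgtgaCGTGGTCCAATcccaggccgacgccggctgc
HYOU1, chr11:119057254-119057304, minus strand, reverse element: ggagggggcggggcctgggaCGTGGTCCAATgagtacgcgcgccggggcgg
SDF2L1, chr22:21642094-21642144, plus strand, reverse element: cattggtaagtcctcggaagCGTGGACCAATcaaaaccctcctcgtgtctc
CANX, chr5:179698758-179698816, plus strand: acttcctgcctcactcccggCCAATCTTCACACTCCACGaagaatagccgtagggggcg
CRELD2, chr22:49918534-49918592, plus strand, reverse element: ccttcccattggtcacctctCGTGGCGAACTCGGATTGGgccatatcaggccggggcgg
HERPUD1, chr16:56932005-56932055, plus strand: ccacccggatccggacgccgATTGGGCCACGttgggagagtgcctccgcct

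Measured from the start of the gene, the first base of the element lay 52 bases upstream in XBP1 and 66 in HSPA5. HSP90B1 held a forward element at 194 and a reverse one at 89 bases. HYOU1 held a pair of reverse elements, at 185 and 79 bases. HYOU1 was also the only one of the 27 with the letters TGACGTGG, the site known as UPRE, which share bases with its element at 185 and occur in the promoters of 0.927% of all symbols. The short motif CCACG, which both ERSE and ERSE-II contain, stood in 20 of the 27 (74.1%), against 42.1% of all symbols. Such a match is a description of the letters and not a measurement of binding.

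The S264A library held 14022885 reads, that of wild-type THG-1 12733479 and that of the empty vector 32055052. TSC22D4, the transduced gene, stood at 51.1 RPKM with S264A, 64.9 with wild-type THG-1 and 7.98 with empty vector (RPKM are reads scaled to gene length and library depth, as deposited by the authors). All 10 keratinocyte markers were at or above 1 RPKM in at least 1 library, and their summed level was 1513 RPKM with S264A, 1527 with wild-type THG-1 and 1140 with empty vector. No fibroblast marker of 6 and no plasma or secretory cell marker of 7 reached 1 RPKM, and LUM, TNFRSF17 and INS were at 0. Of the other lists, 1 melanocyte marker of 6 (MITF), 1 endothelial marker of 5 (VWF) and 1 immune marker of 7 (CD68) reached it, with TYR, TEK and MS4A1 at 0. With 1 library per line there is no spread between replicates and no p-value is given. The ratios below are plain ratios of RPKM, each followed by its exact 95% Clopper-Pearson interval, computed on recovered reads and covering counting error only. Calls use the log2 difference after adding 1 RPKM to each value, which understates the differences of low genes. In RNA from a whole culture, more cells that express a gene and more RNA per cell cannot be told apart.

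The levels of the 31 genes spanned from DERL3, below 1 RPKM in all 3 libraries, to CALR, at 130 RPKM with S264A, 155 with wild-type THG-1 and 140 with empty vector. The other 30 reached 1 RPKM. The 8 most abundant, CALR, HSPA5, CANX, HSP90B1, PDIA3, P4HB, PDIA4 and SEC61A1, made up 75.3% of the summed RPKM of the 31 genes with S264A, 75.8% with wild-type THG-1 and 79.0% with empty vector. The sum itself was 700 RPKM with S264A, 808 with wild-type THG-1 and 759 with empty vector. The total was lowest with S264A. The order of the other libraries turned with scaling, the sum being 759 with wild-type THG-1 and 797 with empty vector after scaling to equal sums, and 753 and 849 with equal upper quartiles.

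**Figure D1:**
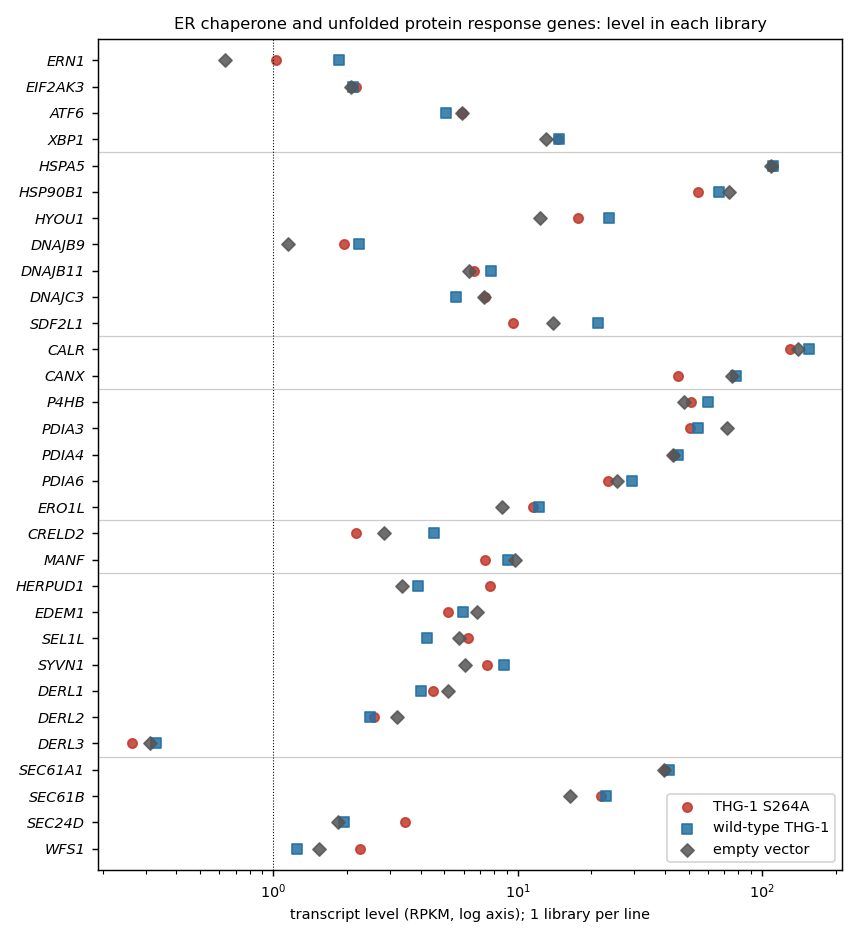
Transcript level of each of the 31 genes (RPKM, log axis) in the S264A, wild-type THG-1 and empty-vector libraries, 1 point per library, with genes grouped by role. CALR and HSPA5 lie above 100 RPKM in all 3 libraries and DERL3 below 1 RPKM in all 3.

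Among the sensors, ERN1 stood apart. ERN1, the kinase and endoribonuclease that splices XBP1, was at 1.02 RPKM with S264A, 1.86 with wild-type THG-1 and 0.632 with empty vector. Wild-type THG-1 was highest and empty vector lowest. The ratio of wild-type THG-1 to empty vector was 2.94 (2.45 to 3.54), that of S264A to empty vector 1.61 (1.30 to 1.99) and that of S264A to wild-type THG-1 0.548 (0.446 to 0.671). These values rest on 155 reads with S264A, 257 with wild-type THG-1 and 220 with empty vector.

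EIF2AK3, which encodes the translation-limiting kinase PERK, was at 2.18 RPKM with S264A, 2.12 with wild-type THG-1 and 2.07 with empty vector. Its 3 ratios lay between 1.03 and 1.05, and each interval held 1. ATF6, the membrane-bound transcription factor, was at 5.92 RPKM with S264A, 5.09 with wild-type THG-1 and 5.89 with empty vector, lowest with wild-type THG-1. XBP1, the transcription factor whose messenger IRE1 splices, was at 14.6 RPKM with S264A, 14.7 with wild-type THG-1 and 13.1 with empty vector. It stood slightly higher in both THG-1 libraries, with a ratio of 1.12 (1.01 to 1.23) for S264A to empty vector and 1.12 (1.02 to 1.24) for wild-type THG-1 to empty vector, but with equal upper quartiles its log2 differences were -0.04 and -0.09, where the medians over all genes were -0.16 and -0.22.

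HSPA5, which encodes BiP, the Hsp70 chaperone of the ER lumen and the usual marker of the unfolded protein response, was nearly level in RPKM. It stood at 111 RPKM with S264A, 111 with wild-type THG-1 and 109 with empty vector, from 6080, 5519 and 13649 reads in the same order. The ratio of S264A to empty vector was 1.02 (0.988 to 1.05), that of wild-type THG-1 to empty vector 1.02 (0.986 to 1.05) and that of S264A to wild-type THG-1 1.00 (0.964 to 1.04). When the libraries were scaled to equal upper quartiles, its log2 difference was -0.18 for S264A to empty vector and -0.23 for wild-type THG-1 to empty vector, where the medians over all genes were -0.16 and -0.22. It was less level in the columns that the authors quantile-normalised. There its log2 difference was -0.18 for wild-type THG-1 to empty vector, against -0.05 over all genes. For S264A to wild-type THG-1 it was 0.19, against 0.02, and for S264A to empty vector 0.01, against -0.03. HSP90B1, the ER Hsp90 known as GRP94, was at 54.8 RPKM with S264A, 66.7 with wild-type THG-1 and 73.3 with empty vector, lowest with S264A. Its ratio was 0.747 (0.720 to 0.776) for S264A to empty vector and 0.910 (0.878 to 0.944) for wild-type THG-1 to empty vector. In the quantile-normalised columns the log2 differences of HSP90B1 were -0.44 and -0.35 in that order, against -0.41 and -0.13 in RPKM.

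Several partners of BiP differed more than BiP itself. HYOU1, the large Hsp70-like protein GRP170 that exchanges the nucleotide of BiP, was at 17.6 RPKM with S264A, 23.6 with wild-type THG-1 and 12.3 with empty vector. It was highest with wild-type THG-1, with a ratio to empty vector of 1.92 (1.82 to 2.03), and intermediate with S264A, with a ratio to empty vector of 1.43 (1.35 to 1.51). DNAJB9, the J-domain protein ERdj4 that restrains IRE1, was at 1.94 RPKM with S264A, 2.24 with wild-type THG-1 and 1.15 with empty vector. Both THG-1 libraries were above the empty-vector library, with ratios of 1.68 (1.23 to 2.27) for S264A and 1.94 (1.44 to 2.62) for wild-type THG-1, and the interval of S264A against wild-type THG-1 held 1 (0.624 to 1.19).

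SDF2L1, which forms a complex with the BiP cochaperone ERdj3, showed the only difference of 2-fold or more among the 31 genes once 1 RPKM was added to each value. It was at 9.60 RPKM with S264A, 21.4 with wild-type THG-1 and 13.9 with empty vector, from 148, 299 and 491 reads in the same order. The ratio of S264A to wild-type THG-1 was 0.449 (0.367 to 0.549). S264A was below the empty vector, with a ratio of 0.689 (0.569 to 0.830), and wild-type THG-1 above it, with a ratio of 1.53 (1.32 to 1.77). DNAJB11, which encodes ERdj3 itself, was at 6.64 RPKM with S264A, 7.80 with wild-type THG-1 and 6.34 with empty vector. DNAJC3, the J-domain protein P58IPK, was lowest with wild-type THG-1, at 7.33 RPKM with S264A, 5.60 with wild-type THG-1 and 7.25 with empty vector.

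Of the pair of lectin chaperones, which retain unfinished glycoproteins, the membrane-bound one differed and the soluble one did so less. CANX (calnexin) was at 45.1 RPKM with S264A, 77.9 with wild-type THG-1 and 75.4 with empty vector. S264A was the low library, with a ratio of 0.599 (0.578 to 0.620) to empty vector and 0.579 (0.557 to 0.603) to wild-type THG-1, whereas the ratio of wild-type THG-1 to empty vector was 1.03 (1.00 to 1.06). For CALR (calreticulin) the ratio was 0.933 (0.902 to 0.964) for S264A to empty vector, 1.11 (1.08 to 1.15) for wild-type THG-1 to empty vector and 0.839 (0.807 to 0.873) for S264A to wild-type THG-1.

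None of the 5 genes of disulphide formation passed 1.5-fold in any comparison of the RPKM as deposited. With 1 RPKM added, between 3.97% and 11.0% of all genes passed it in a given comparison and direction. PDIA3, the isomerase ERp57 that works with the lectin chaperones, was at 50.9 RPKM with S264A, 54.6 with wild-type THG-1 and 71.6 with empty vector, highest in the control. P4HB, the classical protein disulphide isomerase, was at 51.3 RPKM with S264A, 60.1 with wild-type THG-1 and 47.9 with empty vector. PDIA4 (ERp72) was level, at 43.4, 45.4 and 43.3 RPKM in that order, and PDIA6 (P5) was at 23.3, 29.3 and 25.4 RPKM. ERO1L, the oxidase that recharges the isomerases, was higher in both THG-1 libraries, with a ratio to empty vector of 1.34 (1.24 to 1.44) for S264A and 1.42 (1.32 to 1.52) for wild-type THG-1.

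CRELD2 and MANF are small ER proteins that are induced by stress and can be secreted. CRELD2 was at 2.18 RPKM with S264A, 4.56 with wild-type THG-1 and 2.83 with empty vector, from 158, 300 and 468 reads. As for SDF2L1, S264A was lowest and wild-type THG-1 highest, with a ratio of S264A to wild-type THG-1 of 0.478 (0.392 to 0.582). MANF was at 7.36 RPKM with S264A, 9.15 with wild-type THG-1 and 9.72 with empty vector.

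Among the 7 genes of ER-associated degradation, which returns misfolded proteins to the cytosol for the proteasome, HERPUD1 differed most. HERPUD1, a membrane protein of the HRD1 ubiquitin ligase complex, was at 7.68 RPKM with S264A, 3.91 with wild-type THG-1 and 3.37 with empty vector. S264A was the high library, with a ratio of 2.28 (2.00 to 2.60) to empty vector and 1.96 (1.66 to 2.33) to wild-type THG-1. SYVN1, which encodes HRD1, was at 7.49 RPKM with S264A, 8.79 with wild-type THG-1 and 6.07 with empty vector. SEL1L, the adaptor of HRD1, was lowest with wild-type THG-1, at 6.27 RPKM with S264A, 4.26 with wild-type THG-1 and 5.75 with empty vector. EDEM1, which directs trimmed glycoproteins to degradation, was at 5.16 RPKM with S264A, 5.97 with wild-type THG-1 and 6.83 with empty vector. The derlins are membrane proteins of the exit route. DERL1 was at 4.48 RPKM with S264A, 4.01 with wild-type THG-1 and 5.16 with empty vector, and DERL2 at 2.57, 2.48 and 3.21 RPKM in that order, both highest with empty vector. DERL3 had 14 reads with S264A, 16 with wild-type THG-1 and 38 with empty vector, too few for its 3 intervals to leave out 1.

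SEC24D, a coat subunit that selects cargo for transport out of the ER, was at 3.47 RPKM with S264A, 1.94 with wild-type THG-1 and 1.83 with empty vector. As for HERPUD1, S264A was the high library, with a ratio of 1.89 (1.67 to 2.14) to empty vector and 1.79 (1.53 to 2.10) to wild-type THG-1. The interval of wild-type THG-1 to empty vector held 1 for both genes (0.906 to 1.23 for SEC24D and 0.980 to 1.37 for HERPUD1). WFS1 (wolframin), an ER membrane protein, was also highest with S264A, at 2.26 RPKM, against 1.25 with wild-type THG-1 and 1.54 with empty vector. SEC61A1, the pore of the translocon, was level at 40.0, 41.6 and 39.8 RPKM in that order. SEC61B, its small subunit, had 367 reads with S264A, 348 with wild-type THG-1 and 624 in the deeper empty-vector library. It was lowest in the control, with a ratio to empty vector of 1.34 (1.18 to 1.53) for S264A, and its log2 difference for wild-type THG-1 to empty vector was 0.47.

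**Figure D2:**
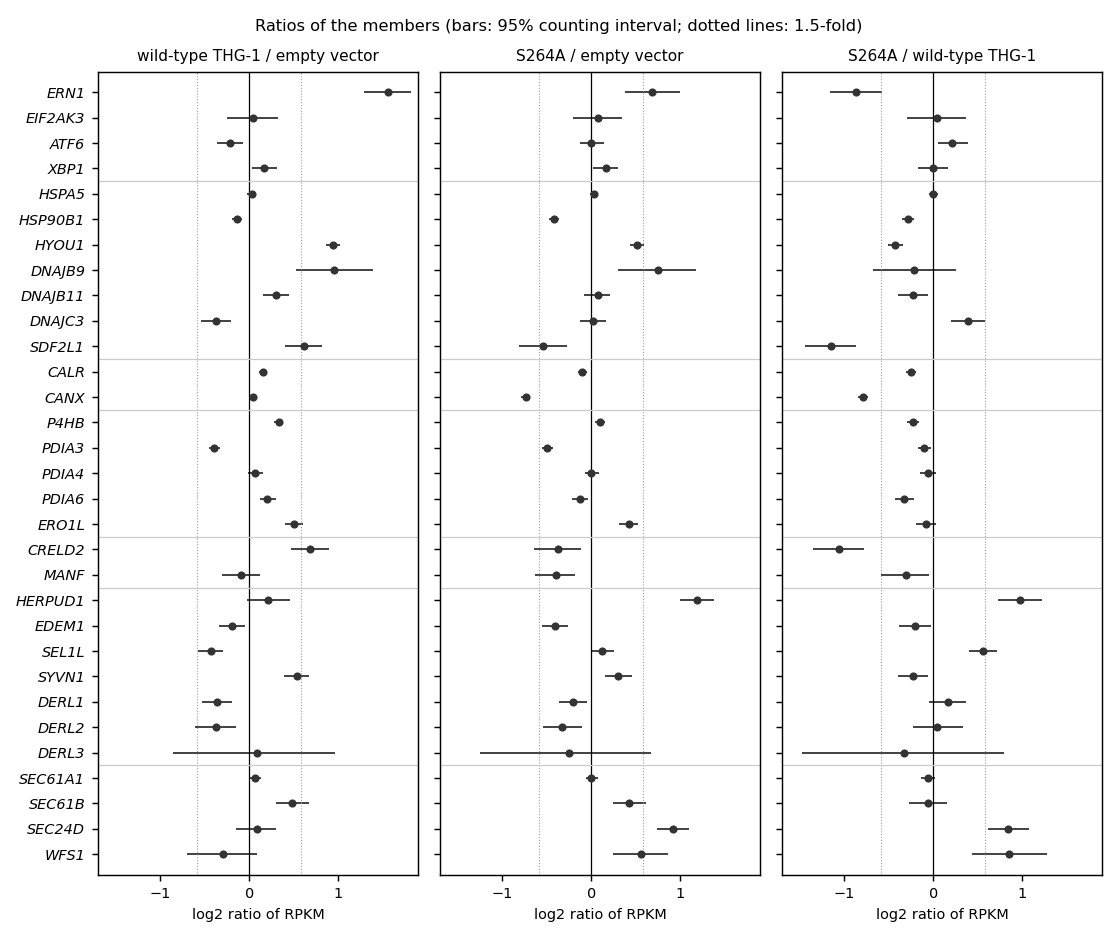
Log2 ratio of RPKM for each of the 31 genes in the 3 comparisons, with exact 95% counting intervals as bars and dotted lines at 1.5-fold. For S264A against wild-type THG-1, SDF2L1 (a ratio of 0.449) and CRELD2 (0.478) lie lowest and HERPUD1 (1.96) highest, while HSPA5 stays within 0.03 of 0 in all 3 comparisons.

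Wild-type THG-1 against empty vector compares lines with 1 library each. An effect of the wild-type protein cannot be told apart from other differences between these lines. On the scale with 1 RPKM added, 3 of the 30 genes that reached 1 RPKM stood at least 1.5-fold higher (ERN1, HYOU1 and DNAJB9) and 0 lower, against 11.0% and 6.72% of all 11993 genes tested. SDF2L1 lay just under the threshold, with a log2 difference of 0.58. At 2-fold the counts were 0 and 0, against 4.53% and 1.54% of all genes. The median log2 difference of the 31 genes was 0.06, against -0.01 over all genes tested, and 21 of the 31 lay above 0. With the libraries scaled to equal upper quartiles it was -0.12, against -0.22 over all genes, and with equal sums -0.05, against -0.14.

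For S264A against empty vector, 2 genes stood at least 1.5-fold higher (HERPUD1 and SEC24D) and 1 lower (CANX), against 8.56% and 3.97% of the 12010 genes tested. No member passed 2-fold in either direction, against 2.99% and 0.824% of all genes, and HERPUD1 came closest at 0.99 on the log2 scale. The median of the 31 genes was 0.01, against 0.02 over all genes. It was -0.17 with equal upper quartiles, where the median over all genes was itself -0.16.

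S264A against wild-type THG-1 compares the line with the replaced serine with the wild-type line, again with 1 library each. An effect of the serine cannot be told apart from other differences between these lines. Here 2 genes stood at least 1.5-fold higher (HERPUD1 and SEC24D) and 3 lower (SDF2L1, CANX and CRELD2), against 6.65% and 7.13% of the 12069 genes tested. SDF2L1 was the only one past 2-fold on this scale, with a log2 difference of -1.08, against 1.55% of all genes 2-fold higher and 2.23% that far lower. The median of the 31 genes was -0.08, against 0.02 over all genes, and 21 of the 31 lay below 0. With equal sums it was 0.01, against 0.12 over all genes. The 3 comparisons share libraries in pairs, so that a high or low library enters 2 of them. In all, 8 of the 31 genes passed 1.5-fold on this scale in some comparison and 23 in none. The share of all genes that passed in any of the 3 comparisons was not computed, so that this count has no background. The plain ratio also exceeded 2-fold for ERN1 (wild-type THG-1 to empty vector), HERPUD1 (S264A to empty vector) and CRELD2 (S264A to wild-type THG-1), all of them below 8 RPKM. The share of all genes past 2-fold by the plain ratio was not computed, so that these have no background either.

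For several of the genes that differed with S264A, the genes beside them on the chromosome differed in the same direction. For each of the 31, the median log2 difference was taken over up to 15 neighbouring protein-coding genes on each side that reached 5 RPKM in at least 1 library, in RefSeq gene order. CANX lies on chromosome 5, and its log2 difference of S264A to wild-type THG-1 was -0.77, against a median of -0.67 over 22 neighbours, all 22 of them below 0. SDF2L1 and CRELD2 lie on chromosome 22. For CRELD2 the value was -0.81, against -0.66 for its 26 neighbours, all 26 below 0. For SDF2L1 it was -1.08, against -0.49 for 30 neighbours, all 30 below 0. In this comparison CANX and CRELD2 were therefore within 0.15 of the genes around them, and SDF2L1 was 0.59 below. For S264A to empty vector CANX had -0.73, against -0.43 for its neighbours, so that it lay 0.30 below them. SDF2L1 had -0.49, against -0.28, and CRELD2 had -0.27, against -0.41.

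HERPUD1 and SEC24D, the genes that stood higher, showed the reverse. HERPUD1 on chromosome 16 had a log2 difference of S264A to empty vector of 0.99, against 0.61 for its 30 neighbours, 29 of them above 0. SEC24D on chromosome 4 had 0.66 in that comparison, against 0.30, so that it lay 0.36 above its neighbours. For S264A to wild-type THG-1 HERPUD1 had 0.82, against 0.61. SEC24D had 0.61 for S264A to wild-type THG-1, against 0.52 for its neighbours, 29 of 30 above 0. WFS1, also on chromosome 4, had 0.53, against 0.56. SEL1L on chromosome 14 had 0.47 in that comparison, against 0.28, and DNAJC3 on chromosome 13 had 0.34, against 0.31. XBP1 went against its surroundings on chromosome 22, with -0.01 where its neighbours stood at -0.55, so that it lay 0.55 above them.

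**Figure D3:**
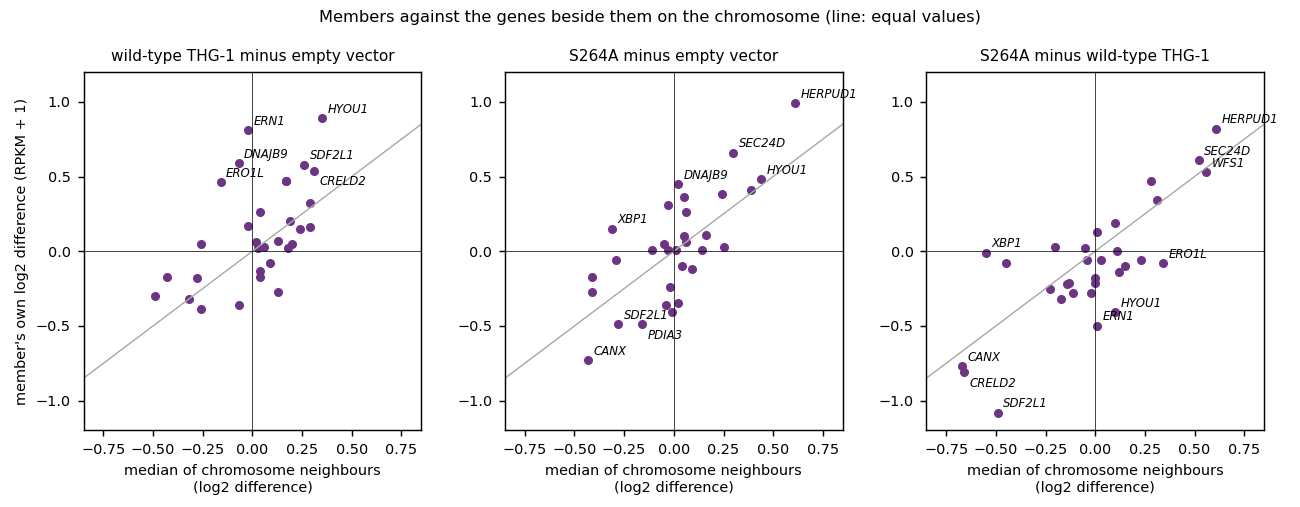
Log2 difference (RPKM + 1) of each of the 31 genes against the median of its chromosome neighbours in the 3 comparisons, with a line at equal values. CANX and CRELD2 lie close to the line for S264A against wild-type THG-1, while SDF2L1 lies 0.59 below it and XBP1 0.55 above it.

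Several differences with wild-type THG-1 did not follow those of the neighbours. ERN1 on chromosome 17 had a log2 difference of wild-type THG-1 to empty vector of 0.81, against -0.02 for its 30 neighbours. DNAJB9 on chromosome 7 had 0.59, against -0.07, and ERO1L on chromosome 14 had 0.46, against -0.16. HYOU1 on chromosome 11 had 0.89, against 0.35, so that it stood 0.54 above its surroundings. For S264A to empty vector HYOU1 had 0.48 and its neighbours 0.44. SDF2L1 and CRELD2 on chromosome 22 differed in the direction of their neighbours for wild-type THG-1 to empty vector. SDF2L1 had 0.58, against 0.26, and CRELD2 had 0.54, against 0.31. Across the 31 genes, the correlation of the own value with the median of the neighbours was 0.54 for wild-type THG-1 to empty vector, 0.73 for S264A to empty vector and 0.78 for S264A to wild-type THG-1 (Pearson; Spearman 0.54, 0.67 and 0.63). The 31 genes were taken here without a filter on their own level. Over all located genes that reached 5 RPKM in either library of the comparison, the Pearson correlation was 0.35 (5904 genes), 0.52 (5785 genes) and 0.48 (5863 genes) in the same order. These are descriptions across genes, some of which share neighbours, and carry no p-value.

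After the neighbours' median was subtracted, which was chosen after the values had been seen, ERN1, DNAJB9 and ERO1L stood at least 1.5-fold higher with wild-type THG-1 than with empty vector and none lower, against 8.28% and 4.81% of all genes. HYOU1 then missed the threshold. For S264A to empty vector 0 genes passed in either direction, against 5.67% and 1.91% of all genes. For S264A to wild-type THG-1 the only one was SDF2L1, lower, against 4.01% of all genes higher and 4.20% lower.

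The medians over whole chromosomes differed as well. Over the protein-coding genes of chromosome 22 that reached 5 RPKM, home of SDF2L1, CRELD2, XBP1 and DERL3, the median log2 difference of S264A to wild-type THG-1 was -0.56 (169 genes). On chromosome 5, home of CANX, it was -0.38 (222 genes). On chromosome 4, home of SEC24D and WFS1, it was 0.39 (136 genes), on chromosome 13, home of DNAJC3, 0.32 (94 genes), and on chromosome 16, home of HERPUD1, 0.24 (312 genes). On chromosome 3, which holds DNAJB11, MANF, EDEM1 and SEC61A1, it was -0.02 (271 genes). The part of these chromosome-wide differences in the values of the members was not tested.

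**Figure D4:**
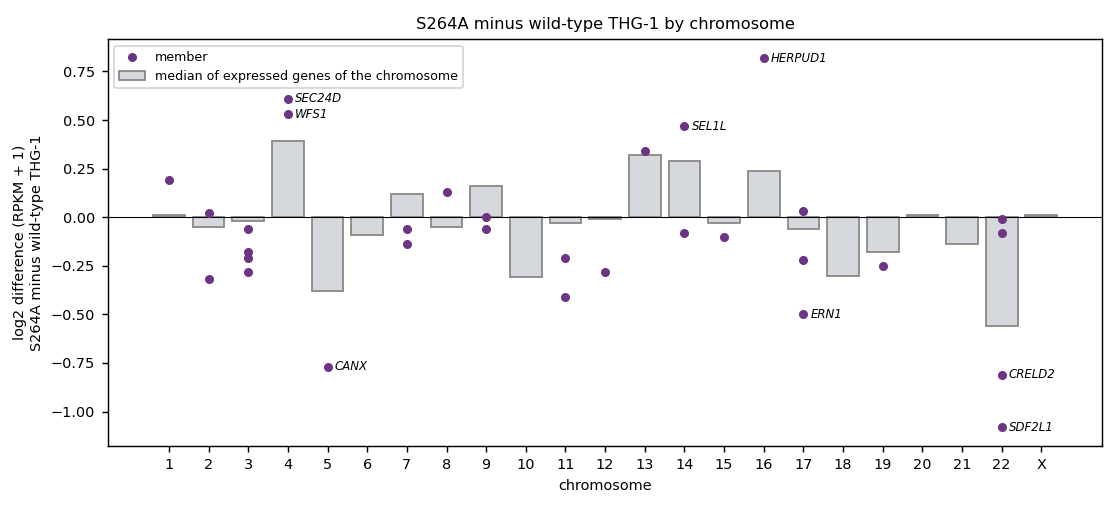
Median log2 difference (RPKM + 1) of S264A to wild-type THG-1 over the genes of each chromosome, with the members drawn on their chromosomes. Chromosome 22 has the lowest median, -0.56, and chromosome 4 the highest, 0.39, and SDF2L1, CRELD2 and SEC24D lie on these chromosomes.

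The genes with and without a stress element in the promoter can be set side by side as a description. The 10 with ERSE or ERSE-II had a median log2 difference of 0.16 for wild-type THG-1 to empty vector, with 9 above 0, and the 17 without had 0.06, with 10 above 0. For S264A to empty vector the medians were -0.11 with an element and 0.06 without. For S264A to wild-type THG-1 they were -0.30 with an element, where 8 of 10 lay below 0, and -0.06 without, where 11 of 17 did. Several of the 10 lie among neighbours that were low in this comparison. The neighbour medians were -0.67 for CANX, -0.66 for CRELD2, -0.55 for XBP1 and -0.49 for SDF2L1. They were -0.23 for CALR, -0.17 for PDIA6, -0.02 for HSP90B1, 0.10 for HYOU1, 0.11 for HSPA5 and 0.61 for HERPUD1. The part of location in the difference between the groups was not tested. The 10 ranged in this comparison from SDF2L1 at -1.08 to HERPUD1 at 0.82, and both carry ERSE-II. HSPA5 and CANX both carry a forward ERSE, and their log2 differences were 0.00 and -0.77. The part of the element in any of these values was not tested.

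Other genes of the pathway were followed in further lists. In the ATF4 and CHOP branch, the amino acid and apoptosis arm downstream of PERK, 14 of 15 genes reached 1 RPKM in the comparison of wild-type THG-1 with empty vector. Of these, 5 were higher by 1.5-fold or more and 1 was lower, where 11.0% and 6.72% of all genes were, and the median of the list was 0.04. PPP1R15A, the phosphatase subunit GADD34 that reverses the action of PERK, was at 12.8 RPKM with S264A, 17.1 with wild-type THG-1 and 6.39 with empty vector. The ratio of wild-type THG-1 to empty vector was 2.67 (2.39 to 2.98), and its neighbours on chromosome 19 had a median log2 difference of 0.14 where PPP1R15A had 1.29. TRIB3, a pseudokinase induced by ATF4 and CHOP, was at 20.3 RPKM with S264A, 20.8 with wild-type THG-1 and 6.62 with empty vector. Its 16 neighbours on chromosome 20 differed nearly as much, with a median log2 difference of 1.32 for wild-type THG-1 to empty vector where TRIB3 had 1.51. CEBPB, a transcription factor related to CHOP, was at 26.5 RPKM with S264A, 36.9 with wild-type THG-1 and 18.7 with empty vector, while its neighbours had a median of 0.00 for wild-type THG-1 to empty vector. CHAC1, a glutathione-degrading enzyme, and ATF3, a stress-induced transcription factor, were the other 2 of the 5, with log2 differences of 0.73 and 0.66. The lower gene was PHGDH, at 19.5 RPKM with S264A, 17.1 with wild-type THG-1 and 28.2 with empty vector. DDIT4 and ASNS also stood lower with wild-type THG-1 than with empty vector, with log2 differences of -0.57 and -0.42. Of the 15 genes of the list, 9 lay above 0 in this comparison and 6 below.

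ATF4 itself, whose control is largely translational, was at 64.1 RPKM with S264A, 86.7 with wild-type THG-1 and 61.8 with empty vector. DDIT3, which encodes CHOP, was at 7.08 RPKM with S264A, 5.80 with wild-type THG-1 and 4.69 with empty vector. For S264A to empty vector 2 of the 13 that reached 1 RPKM stood higher, TRIB3 and PPP1R15A, and 1 lower, against 8.56% and 3.97% of all genes, with a median of 0.24 over the list. The lower one was DDIT4, an inhibitor of mTORC1 signalling, at 70.8 RPKM with S264A, 88.5 with wild-type THG-1 and 131 with empty vector. For S264A to wild-type THG-1 2 of 14 stood higher and 0 lower, against 6.65% and 7.13% of all genes. The 2 higher were ASNS, asparagine synthetase, with a log2 difference of 0.76, and SLC7A11, the cystine carrier, with 0.64.

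Of the 12 UPR transducers and processing factors that reached 1 RPKM, 1 was lower with wild-type THG-1 than with empty vector and 1 higher with S264A. The shares of all genes past 1.5-fold were 6.72% and 8.56% in the same order. The lower one was MBTPS2, the protease that makes the second cut of ATF6, at 2.43 RPKM with S264A, 1.96 with wild-type THG-1 and 3.58 with empty vector. MBTPS1, the protease that makes the first cut, was at 9.18 RPKM with S264A, 6.10 with wild-type THG-1 and 5.79 with empty vector. It lies on chromosome 16, as HERPUD1 does, and its log2 difference of S264A to empty vector was 0.59, against 0.70 for its neighbours.

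Of 26 other ER folding factors, 21 reached 1 RPKM. The list had medians of -0.07 for S264A to empty vector and -0.08 for wild-type THG-1 to empty vector. None stood 1.5-fold higher than with empty vector in either THG-1 library, against 8.56% of all genes with S264A and 11.0% with wild-type THG-1. Of the 21, 2 were lower with wild-type THG-1 and 3 with S264A, against 6.72% and 3.97% of all genes. FKBP9, a peptidyl-prolyl isomerase, was at 8.24 RPKM with S264A, 4.60 with wild-type THG-1 and 13.3 with empty vector, a log2 difference of -1.35 for wild-type THG-1, where its neighbours on chromosome 7 had -0.74. PRDX4, an ER peroxidase, was lower in both, at 15.1 RPKM with S264A and 14.3 RPKM with wild-type THG-1, against 24.0 RPKM with empty vector. None of 19 other degradation factors and none of 11 glycosylation genes passed 1.5-fold against empty vector in either THG-1 library, where the same shares of all genes did. Of 16 translocation and signal peptidase genes, with medians of -0.21 for S264A to empty vector and -0.14 for wild-type THG-1 to empty vector, SEC61G, the small translocon subunit, was lower with wild-type THG-1 (a log2 difference of -0.76). SRPR, the receptor of the signal recognition particle, stood higher in both, at 23.7 RPKM with S264A, 26.5 with wild-type THG-1 and 14.1 with empty vector. So did SEC23B, a coat subunit of the same vesicles as SEC24D and 1 of 17 genes of that transport step, at 17.2 RPKM with S264A, 20.2 with wild-type THG-1 and 9.16 with empty vector. The neighbours of both genes were higher too. For wild-type THG-1 to empty vector SRPR had a log2 difference of 0.87, against 0.40 for its neighbours, and SEC23B had 1.06, against 0.65. For S264A to empty vector SRPR had 0.71, against 0.40, and SEC23B had 0.84, against 0.68. KDELR2, a receptor that returns chaperones to the ER, was lowest with wild-type THG-1, at 27.0 RPKM with S264A, 16.6 with wild-type THG-1 and 27.9 with empty vector. Against wild-type THG-1, the genes of these lists that stood 1.5-fold higher with S264A included TMX4 and FKBP9 among the folding factors, OSTC among the glycosylation genes, and KDELR2 and SEC23A in the transport list. SIL1, a folding factor, was the only gene of these lists that stood 1.5-fold lower. Over all genes, 6.65% stood that far higher and 7.13% that far lower. For OSTC, an oligosaccharyltransferase subunit on chromosome 4, the log2 difference was 0.67, against 0.51 for its neighbours.

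**Figure D5:**
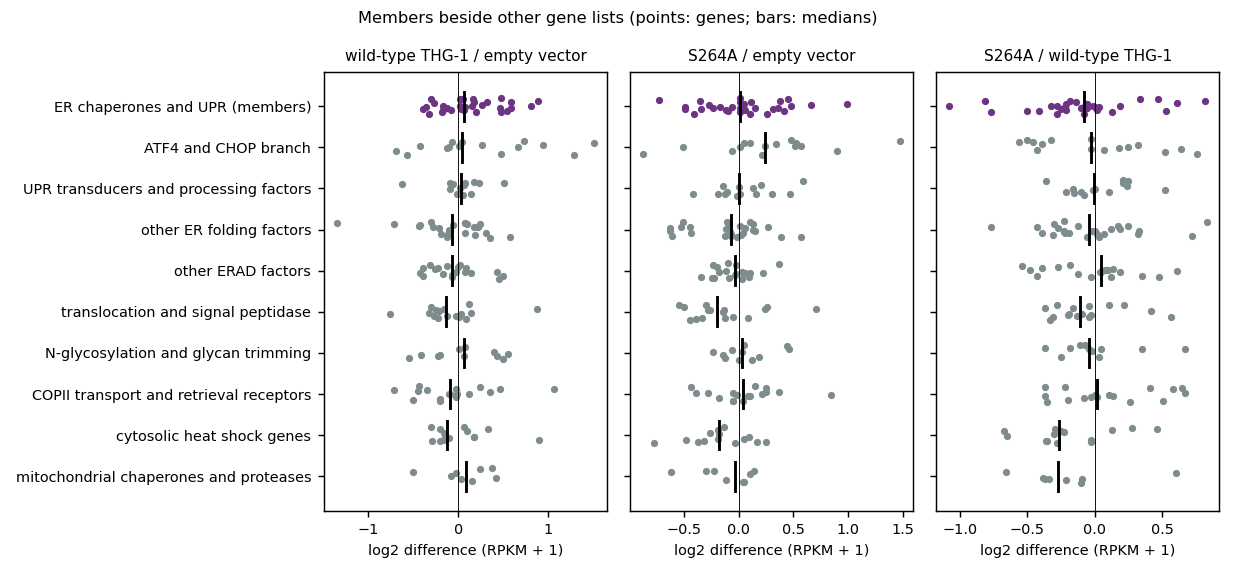
Log2 differences (RPKM + 1) of the 31 genes beside other gene lists in the 3 comparisons, 1 point per gene with bars at the medians. The median of the 31 is 0.06 for wild-type THG-1 to empty vector, 0.01 for S264A to empty vector and -0.08 for S264A to wild-type THG-1, and the ATF4 and CHOP branch holds the points furthest to the right in the comparisons with empty vector.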

How the data were processed

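The deposited table gives RPKM for each gene and library, computed by the authors, and a column of RPKM that they quantile-normalised across the 3 libraries, per the file headers and the values. Per the submitters' processing notes the build was hg19. The sources used here give no aligner, counter, strandedness or library selection. The symbol row with the highest mean was kept for 234 symbols with several rows (57773 rows, 55773 symbols).

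Genes entered a comparison if either of its 2 libraries had 1 RPKM or more, and 1 RPKM was added before log2. Calls are by size, at 1.5-fold and 2-fold. Whole reads were recovered from the steps of the RPKM values (tolerance 0.001 reads) for all 31 members, 26 of them at the GENCODE release 29 length, which served as length only. For the other 5 the length was inferred from the steps. The procedure was tested on simulated data. RefSeq tables of GRCh38 gave gene order, chromosome and promoters, and no coordinate was moved between builds. Analyses used Python 3.11.15, numpy 2.4.6, scipy 1.17.1 and pandas 2.3.3.

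Members and lists were chosen with earlier results of these data known. Values are given in full for the 4 sensors and transcription factors, HSPA5, HSP90B1 and the members with the largest log2 difference in any comparison, 13 in all. Other members are given by role, and of each further list up to 5 genes past 1.5-fold, except in the ATF4 and CHOP branch, where more are given. A few further genes of the lists (ATF4, DDIT3) and members were named for their role after their values were seen. Of the listed genes, C22orf28 was not matched in the table.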

Additional observations from a re-analysis of the deposited data

How the results depend on the processing

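With 1 library per line, all values depend on single cultures, and only counting error is known. No paired analysis was possible because each group has 1 library. Of 346 recomputed values of the 13 genes given in full, 278 stayed within their counting interval and 68 moved. A filter drops genes but cannot move the value of a gene that it keeps. The values without a filter (39) and with filters at 5 RPKM (23) and 20 RPKM (13) therefore stayed by construction. Median-ratio scaling, with factors of 0.995 to 1.005, left its 39 values the same. Neighbour subtraction moved 24 and left 15, and equal upper quartiles moved 13 and left 25. The sign turned in 34 of the 346, among differences of at most 0.27 (log2), and in 0 of those at or past 1.5-fold. The neighbour subtraction was chosen after seeing the data. For wild-type THG-1 to empty vector, the median of the members was -0.12 with equal upper quartiles and -0.05 with equal sums, against -0.22 and -0.14 over all genes. The count at least 1.5-fold higher was 5 with a pseudocount of 0.1 RPKM, and 1 (HYOU1) with a pseudocount of 5 RPKM or a filter at 5 or 20 RPKM. With equal upper quartiles 1 was lower (PDIA3), and with a pseudocount of 0.1 RPKM 1 passed 2-fold higher (ERN1). For S264A to empty vector, the median was -0.17 with equal upper quartiles, against -0.16 over all genes. The count higher was 4 with a pseudocount of 0.1 RPKM, 1 with a pseudocount of 5 RPKM, a filter at 5 RPKM or equal upper quartiles, and 0 with a filter at 20 RPKM or after neighbour subtraction. The count lower was 4 with equal upper quartiles (HSP90B1, SDF2L1, CANX and PDIA3) and 0 after neighbour subtraction, and 1 (HERPUD1) was 2-fold higher with a pseudocount of 0.1 RPKM. For S264A to wild-type THG-1, the median was -0.24 with a filter at 20 RPKM, against -0.13 over all genes. The count higher was 0 with a pseudocount of 5 RPKM, a filter at 20 RPKM or neighbour subtraction, and 1 with a filter at 5 RPKM or the quantile-normalised columns. The count lower was 1 after neighbour subtraction. The count 2-fold lower was 2 with a pseudocount of 0.1 RPKM and 0 with a pseudocount of 5 RPKM, equal sums or neighbour subtraction. Pseudocounts and filters act on the low genes (ERN1, DNAJB9, CRELD2, SEC24D) by construction, and the cause of the other moves was not tested.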

Other observations

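Chaperones outside the ER gave values not described above. Among 14 cytosolic heat shock genes, 1 stood at least 1.5-fold higher with wild-type THG-1 than with empty vector, against 11.0% of all genes. It was BAG3, a partner of Hsp70 in selective autophagy, at 45.6 RPKM with S264A, 72.3 with wild-type THG-1 and 38.3 with empty vector. HSPA4, a nucleotide exchange factor of cytosolic Hsp70, was the only one 1.5-fold lower with S264A than with empty vector, at 18.9 RPKM, against 30.7 with wild-type THG-1 and 33.0 with empty vector. HSPA9, the mitochondrial Hsp70 mortalin, was the only one of 8 mitochondrial genes at least 1.5-fold lower in that comparison. It stood at 30.2 RPKM with S264A, 48.2 with wild-type THG-1 and 47.0 with empty vector. Over all genes, 3.97% were that far lower with S264A than with empty vector. The medians of S264A to wild-type THG-1 were -0.27 for the cytosolic and -0.27 for the mitochondrial list, against 0.02 over all genes tested. Many of these genes are abundant, and the median over all genes was -0.04 with a filter at 5 RPKM and -0.13 with a filter at 20 RPKM.

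HSPA4 and HSPA9 lie on chromosome 5, as CANX does. The log2 difference of S264A to empty vector was -0.78 for HSPA4, against -0.49 for its neighbours, and -0.62 for HSPA9, against -0.50 for its neighbours. SIL1, a nucleotide exchange factor of BiP on the same chromosome, was at 1.87 RPKM with S264A, 3.88 with wild-type THG-1 and 3.13 with empty vector.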
